A study of Mus musculus with 4 samples.

Results

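The microsomal and cytosolic glutathione transferases described here are 10 genes: Mgst1, Mgst2, Mgst3, Ltc4s and Alox5ap of the membrane-bound family, and Hpgds, Gsta4, Gstm1, Gstm5 and Gstp1 of the soluble family. They were chosen by name, because Mgst2 was higher in the knockout than in the control cerebellum in these same arrays, and every non-control probe whose RefSeq accession maps to one of them was taken. That gave 13 probes, of which 12, for 9 genes, passed the filter on dim probes, out of 16524 genes with a probe that passed. A probe passed when its signal was well above background, a flag of the scanner software, on both arrays of at least 1 group.

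RNA came from the cerebellum of C57BL/6 mice at postnatal day 28 and was hybridised to 4 Agilent arrays in 1 colour, 2 per group. Control mice were Derl2 flox/flox. Knockout (KO) mice came from crossing Derl2 flox/flox mice with mice that carry a nestin promoter-driven Cre recombinase, so deletion is limited to cells descended from nestin-expressing neural precursors; other cells of the tissue keep the gene. The product of Derl2, Derlin-2, spans the membrane of the endoplasmic reticulum (ER) and helps to move misfolded proteins out of the ER for degradation. Neither sex nor Cre in the controls is given in the labels, and nothing there says whether the 2 samples of a group are separate mice. If they are not, the spread between them is technical.

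Glutathione transferases join the tripeptide glutathione to reactive, fat-soluble compounds, which can then be exported from the cell; several also reduce lipid peroxides. The membrane-bound family, called MAPEG for membrane-associated proteins in eicosanoid and glutathione metabolism, sits in the ER and nuclear envelope and includes both detoxifying enzymes and enzymes of leukotriene synthesis. The soluble alpha, mu and pi classes lie in the cytosol and are unrelated to MAPEG in sequence, and Hpgds, of the sigma class, makes prostaglandin D2. Many of these genes have antioxidant response elements, the binding sites of the transcription factor NRF2, which in turn can be activated during ER stress through the kinase PERK.

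The promoters of 3 members are shown because Mgst2 is the member that chose the list, Mgst3 is a related ER enzyme with a difference of −0.22 that did not pass the test, and Gstm5 has a match to the antioxidant response element. Each line gives the 250 bases before the RefSeq start, 5′ to 3′ on the gene's strand, from the RefSeq promoter table of GRCm38.p6, with matches to the searched motifs in capitals. The Mgst2 window is chr3:51660929-51661178 on the plus strand, the Mgst3 window chr1:167393842-167394091 on the minus strand and the Gstm5 window chr3:107895604-107895853 on the plus strand.
Mgst2: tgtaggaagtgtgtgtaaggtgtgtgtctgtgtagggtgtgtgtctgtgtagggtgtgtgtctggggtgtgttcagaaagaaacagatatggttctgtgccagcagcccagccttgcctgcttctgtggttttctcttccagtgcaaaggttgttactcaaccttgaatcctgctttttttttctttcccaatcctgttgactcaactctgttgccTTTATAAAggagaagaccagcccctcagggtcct
Mgst3: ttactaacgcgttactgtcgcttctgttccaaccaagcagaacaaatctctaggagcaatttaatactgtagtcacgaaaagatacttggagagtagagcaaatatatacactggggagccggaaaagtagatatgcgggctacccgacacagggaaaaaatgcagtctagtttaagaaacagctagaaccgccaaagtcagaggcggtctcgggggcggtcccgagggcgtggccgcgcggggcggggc
Gstm5: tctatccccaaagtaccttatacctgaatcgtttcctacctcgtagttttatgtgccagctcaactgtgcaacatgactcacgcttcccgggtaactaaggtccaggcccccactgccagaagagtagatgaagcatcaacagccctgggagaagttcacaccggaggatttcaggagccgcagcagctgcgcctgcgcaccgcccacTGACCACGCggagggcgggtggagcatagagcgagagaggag

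The capitals in Gstm5 mark the antioxidant response element core, TGACNNNGC, searched on both strands. In windows that run from 250 bases before to 50 bases after the start, 12.4% of the 32851 promoters in the table hold this core. Of the 8 members in the table, which have 10 windows, Gstm5 held it at −42 to −34 from the start and Mgst1 held it on the minus strand at −56 to −48. Mgst2 and Mgst3 held none in these windows. The capitals in Mgst2 mark the TATA box letters TATAAA, a motif chosen after the sequences were seen: they occur on the plus strand at −32 to −27 and, overlapping that match, on the minus strand at −34 to −29. TATAAA occurred in 13.6% of all windows, and among the members also in Gstm1 at −30 to −25 and in Gstm5 after the start, at 41 to 46. The unfolded protein response element TGACGTGG occurred in 0.676% of windows, the amino acid response element core TGATGNAA in 3.97% and the ER stress element in 0.119%; no member's window held any of these. The Mgst2 window had 0 CpG pairs, as did 5.43% of all windows, against a median of 7. The Mgst3 window had 21, a number reached by 24.8% of windows. Gstp1 had 20, Gstm5 18, Ltc4s 6 and Hpgds 5. The Gstm1 windows had 8 and 14, and the Mgst1 windows 13 and 1. These matches describe letters in the reference sequence; binding was not measured.

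Levels are given as log2 of the scanner's processed signal less the array's 75th percentile, so that 0 is the 75th percentile of that array, and differences are KO minus control on this log2 scale. The level of 1 probe is not comparable with that of another probe. Summed marker levels, given further on, add values on the linear scale and are carried mainly by the brightest probes of each list. Each array held 59305 non-control spots, of which 66.4% to 69.4% were well above background and 0 saturated. All 4 arrays shared 1 slide, the controls at positions 1 and 2 and the KO arrays at positions 3 and 4, so position and group cannot be told apart, and having so few arrays limits how precise any value can be. The labels were checked on Derl2: probe A_51_P498831 read 2.13 and 2.20 in the controls and 0.81 and 0.70 in KO, a difference of −1.41 (SE 0.11, limma adjusted p = 0.273), and probe A_55_P2178203 differed by −1.73 (SE 0.10). All 11 granule cell and all 9 Purkinje cell markers listed for the cerebellum passed the filter.

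Over all 37516 probes that passed, limma called 0 (0%) at a Benjamini-Hochberg adjusted p under 0.05, while 5265 (14%) had an unadjusted p under 0.05. With no probe called, the Derl2 probes included, the members are described by their values on the 4 arrays and by whether the 2 groups overlapped. By non-overlap, 1 of the 9 measured members was higher in KO without overlap, against 13.8% of all genes, and 4 were lower without overlap, against 32.1% of all genes. The single higher member is Mgst2, which chose the list, so nothing is read from that count; it was also the 1 member at least 2-fold apart, against 0.327% of all genes higher and 0.75% lower by that rule. Without Mgst2, 0 of 8 were higher without overlap and 4 were lower, and the median difference was −0.11, beside −0.06 over all genes. The plots of member levels and of member differences show these values.

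**Figure D1:**
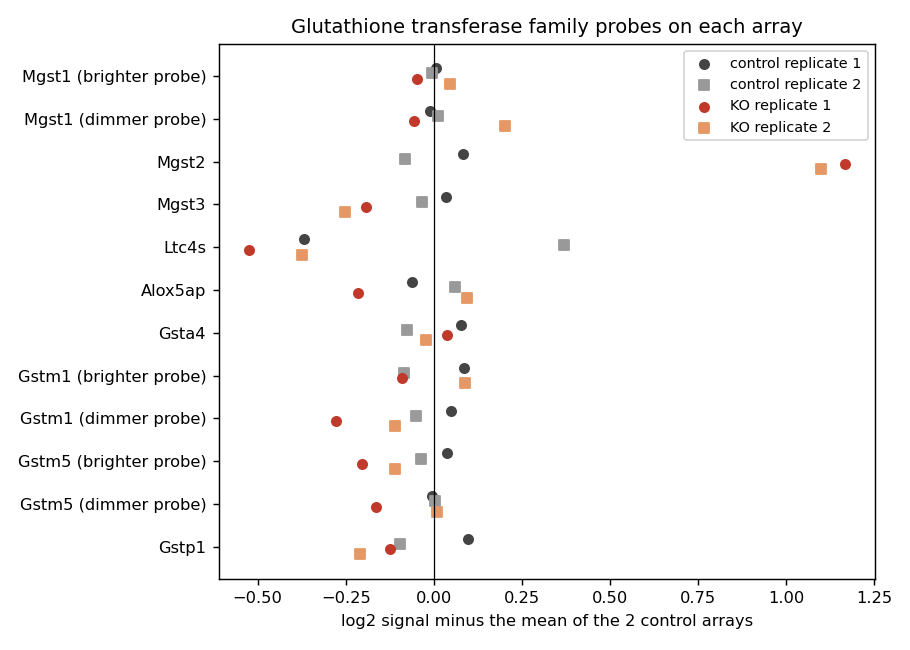
Log2 signal of each family probe that passed the filter on dim probes (rows), minus the mean of the 2 control arrays, with 1 point for each of the 4 arrays (dark and light grey, control replicates 1 and 2; red and orange, KO replicates 1 and 2). Mgst2 has both KO arrays above 1 while no other probe has a KO array near that height; for Ltc4s control replicate 2 lies apart from the other 3 arrays.

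Mgst2 encodes an ER membrane enzyme that conjugates glutathione, reduces lipid hydroperoxides and can make leukotriene C4 outside blood cells. Its only probe, A_51_P150120, read −4.40 and −4.56 in the controls and −3.31 and −3.38 in KO, so both KO arrays lay above both controls. The group means were −4.48 ± 0.12 and −3.34 ± 0.05 (SD, n = 2 each). The difference was 1.13 (SE 0.11, 95% interval 0.83 to 1.44), or 2.19-fold, and the 4 KO-control pairs gave 1.02 to 1.25. Since this difference chose the members, it is given as a description with no test. Mgst2 ranked 49 of 16524 genes by the size of its increase.

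The Mgst2 spot was dim. The control arrays gave processed signals of 37.8 and 33.5 and the KO arrays 76.4 and 69.4, where the lowest signals that counted as well above background ranged from 10.6 to 15.4. Before background subtraction the spot's median was 65.0 and 61.5 for control and 96.0 and 88.0 for KO arrays, over a local background of 20.0 to 23.0 on all arrays. Its size moved with the background treatment: after normexp correction with an offset of 50, which pulls dim signals together by design, the Mgst2 difference was 0.40, and after plain subtraction of the local background, tried after the data were seen, 0.92. Among 1108 genes within 0.5 of the Mgst2 mean level, the median difference was −0.09, and 8 (0.722%) were at least 2-fold higher in KO without overlap. The spot also lies in the outermost column of the array, column 1, row 118. The 238 other probes that passed and have a spot in that column had a median difference of −0.05. Of these, 46 (19.3%, against 22.5% of all probes that passed) were higher without overlap and 52 (21.8%, against 26.9%) lower. At least 2-fold higher without overlap was 1 of them, against 228 of all 37516 probes. Of the 238, 93 were dim, with a mean level under −2, as Mgst2 is. These 93 had a median difference of −0.10, with 23 higher and 16 lower without overlap. The 1 probe at least 2-fold higher, at 1.06, was among them. An effect of the edge column on the Mgst2 value was not tested. No member spot was flagged as an outlier or lay on a patch of raised local background.

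**Figure D2:**
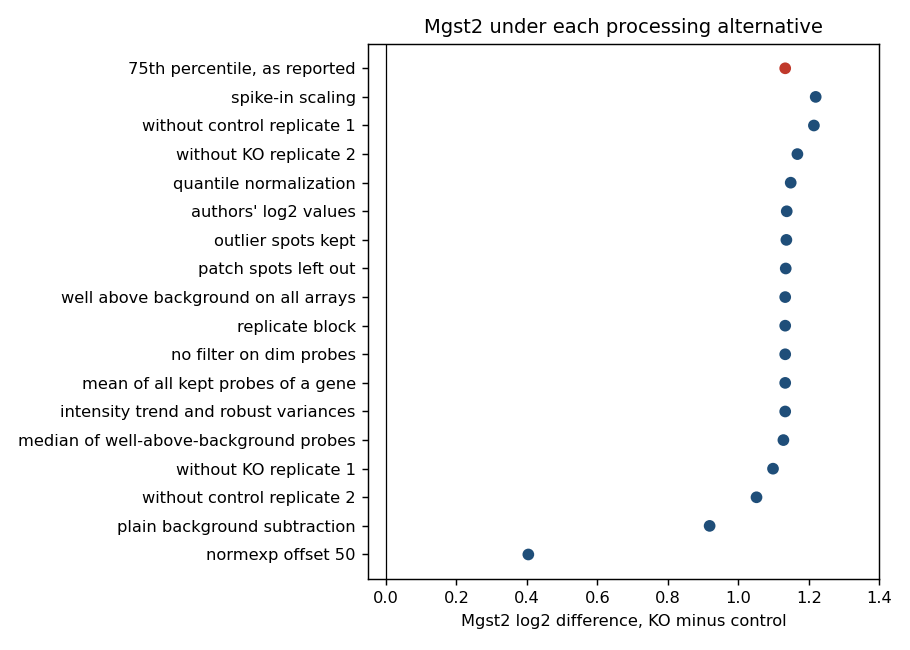
Log2 difference of Mgst2, KO minus control (horizontal axis), as reported (red) and under each of 17 processing alternatives (blue, rows). All points lie above 0, from 0.40 with normexp correction to 1.22 with spike-in scaling. Several alternatives, such as the intensity trend, the replicate block and the filters on dim probes, cannot change the difference.

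Genes with a profile most like Mgst2 were ranked by the Euclidean distance between log2 levels on the 4 arrays after centring each gene, 1 probe a gene. The nearest was Fam71d (distance 0.21), followed by 4932411N23Rik (0.23), the chemokine gene Cxcl5 (0.27), 1700001D01Rik (0.27) and 9330159H11Rik (0.31). Their KO-control differences were 1.04 for Fam71d, 1.19 for 4932411N23Rik, 0.96 for Cxcl5, 0.93 for 1700001D01Rik and 0.85 for 9330159H11Rik. The genes were picked for closeness to Mgst2 on the same 4 arrays, so differences of similar size were bound to occur. Fam71d, 4932411N23Rik and Cxcl5 were dim, with control means of −4.08, −4.93 and −5.11, though well above background on all 4 arrays. The 1700001D01Rik probe was well above background on 2 of the 4 arrays, the KO arrays, so its control level and its place in this order are uncertain. None of these is a member or in a glutathione list.

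Mgst3 encodes a related ER membrane enzyme with glutathione transferase and peroxidase activity. Its levels were 3.59 and 3.52 in the controls and 3.36 and 3.30 in KO, with both KO arrays below both controls. The difference was −0.22 (SE 0.10, 95% interval −0.49 to 0.05, limma adjusted p = 0.410), a KO level 85.7% of control. It did not pass the test. Leaving out each array in turn kept it between −0.26 and −0.19, and spike-in scaling, which raised the median of all 37516 probes from −0.03 to 0.06, gave −0.14. The gap between Mgst3 and Mgst2 was not tested, because Mgst2 had been chosen for its value.

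Mgst1, found on the ER and the outer mitochondrial membrane and known for reducing lipid peroxides, had 2 probes. The brighter one, A_55_P2494842, read 1.63 and 1.62 in the controls and 1.58 and 1.67 in KO. The groups overlapped, and the difference was −0.001 (SE 0.10, 95% interval −0.28 to 0.27, limma adjusted p = 0.997). The dimmer probe, A_55_P2175880, read 0.83, 0.85, 0.78 and 1.04 in the same order, a difference of 0.07 (SE 0.13). The 95% interval of the dimmer probe ran from −0.28 to 0.42.

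Ltc4s and Alox5ap are the leukotriene arm of the family. Ltc4s encodes leukotriene C4 synthase, and Alox5ap encodes FLAP, which has no transferase activity of its own and presents arachidonic acid to 5-lipoxygenase. Ltc4s read −0.59 and 0.15 in the controls and −0.75 and −0.60 in KO. The groups did not overlap, but KO replicate 2 differed from control replicate 1 by only −0.004, and control replicate 2 stood apart. The difference of −0.45 (SE 0.27, 95% interval −1.19 to 0.29, limma adjusted p = 0.504) did not pass the test; it was −0.08 without control replicate 2 and −0.82 without control replicate 1. The same array had the highest choroid plexus markers. The summed level of the 11 choroid plexus markers, all of which passed the filter, stood at 33.7 in control replicate 1, 244 in control replicate 2 and 24.9 and 26.9 in KO, in multiples of each array's 75th percentile. The part of such tissue in the Ltc4s value was not tested.

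Alox5ap read −1.01 and −0.89 in the controls and −1.16 and −0.85 in KO. The groups overlapped, and the difference was −0.06 (SE 0.15, 95% interval −0.46 to 0.34, limma adjusted p = 0.869). In brain both genes are known from microglia, which do not descend from nestin-positive precursors. All 12 microglial markers passed the filter. Of these, 6 (50%) were lower without overlap, against 32.1% of all genes, and 0 higher, with a median difference of −0.21. Their summed levels were 143 and 140 (controls) and 135 and 133 (KO). Those sums were carried mainly by the brightest probes, Itgam (difference −0.06) and Siglech (−0.03), and say little about the other markers. The 6 border macrophage markers had a median difference of 0.31, 1 of them higher without overlap (16.7%, against 13.8% of all genes), with summed levels of 2.26 and 1.78 in the controls and 1.83 and 2.88 in KO. In bulk tissue, fewer cells of a type and less RNA per cell cannot be told apart.

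**Figure D3:**
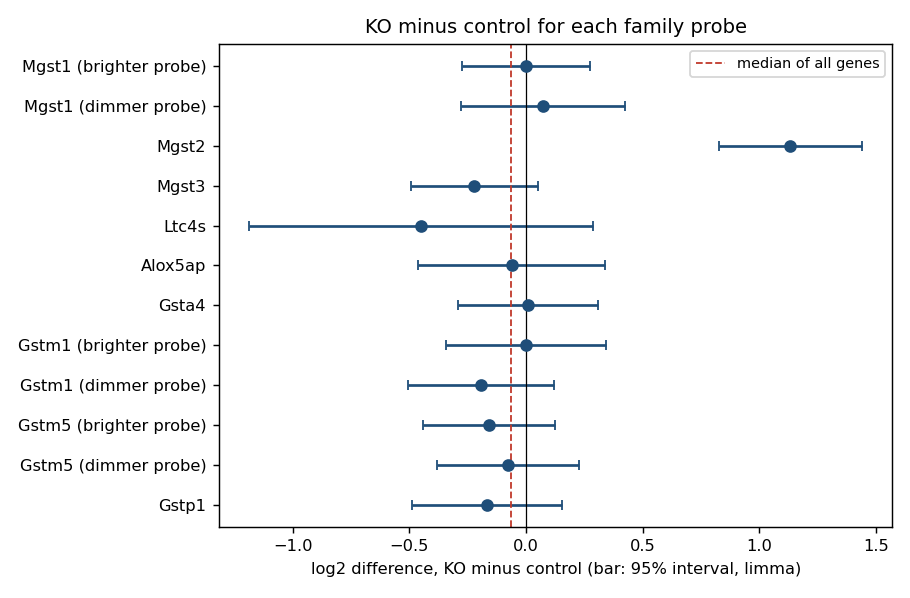
Log2 difference, KO minus control, for each family probe that passed the filter (points), with the 95% interval of the limma fit (bars) and the median of all genes (dashed line, −0.06). The Mgst2 interval runs from 0.83 to 1.44. It is a description and not a test, since Mgst2 chose the list for this difference. The intervals of the other 11 probes include 0.

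The soluble members showed no change past the test. Hpgds, the hematopoietic prostaglandin D synthase of mast cells and microglia, was not well above background on any array, with processed signals of 7.11, 11.3, 4.39 and 12.7, so no difference is given. Of 8 mast cell markers, 3 passed the filter. Gsta4, the alpha-class enzyme specialised for 4-hydroxynonenal, an aldehyde from lipid peroxidation, read 0.47 and 0.32 in the controls and 0.43 and 0.37 in KO. Both KO arrays lay within the range of the controls, and the difference was 0.01 (SE 0.11, 95% interval −0.29 to 0.31, limma adjusted p = 0.980).

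The mu-class genes Gstm1 and Gstm5 are abundant brain transferases, Gstm1 being known from astrocytes. The brighter Gstm1 probe, A_55_P2062190, read 4.84 and 4.67 in the controls and 4.66 and 4.84 in KO, a difference of −0.001 (SE 0.13, 95% interval −0.34 to 0.34). The dimmer Gstm1 probe, A_55_P1966432, read 3.41 and 3.31 in the controls and 3.08 and 3.24 in KO. Here the KO arrays lay below the controls, by −0.19 (SE 0.12, limma adjusted p = 0.50), so the 2 probes disagree on overlap. The brighter Gstm5 probe, A_66_P115987, read 4.90 and 4.83 in the controls and 4.66 and 4.75 in KO, without overlap, a difference of −0.16 (SE 0.10, 95% interval −0.44 to 0.12, limma adjusted p = 0.532). The dimmer Gstm5 probe, A_51_P260169, read 3.57, 3.58, 3.41 and 3.58, overlapped, and differed by −0.08 (SE 0.11). Gstm5, Gstm7, Gstm6, Gstm3, Gstm2 and Gstm1 follow one another in the RefSeq order with 4 genes between the outer 2, and their transcripts are alike, so how far a probe reads its neighbours is uncertain. The 12 astrocyte and Bergmann glia markers had a median difference of −0.09, with 5 lower without overlap (41.7%, against 32.1% of all genes) and 0 higher, and summed levels of 261 and 266 in the controls and 217 and 229 in KO.

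Gstp1, the pi-class enzyme known from oligodendrocytes and as a regulator of stress kinases, read 1.87 and 1.68 in the controls and 1.65 and 1.57 in KO. The KO arrays lay below both controls, the nearest pair differing by −0.03, and the difference was −0.17 (SE 0.12, 95% interval −0.49 to 0.16, limma adjusted p = 0.557). Its near-identical neighbour Gstp2, whose probe may read both genes, differed by −0.15 (SE 0.10). The 12 oligodendrocyte markers had a median difference of −0.32, 8 of them (66.7%, against 32.1% of all genes) lower without overlap and 1 higher (8.33%, against 13.8%), with summed levels of 478 and 454 in the controls and 404 and 453 in KO. The part of these cells in the Gstp1 value was not tested.

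The other genes of the glutathione system were taken from lists, whose counts are set beside the 32.1% of all genes that were lower and the 13.8% that were higher without overlap. Of 20 other glutathione transferases, 17 passed the filter: 7 (41.2%) were lower without overlap, 1 (5.88%) was higher, and the median difference was −0.15, beside −0.06 over all genes. That median was −0.033 without KO replicate 1 and −0.31 without KO replicate 2. The 3 with the smallest unadjusted p were Gsto1, an omega-class enzyme, at −0.50 (SE 0.10), Ptges2, a prostaglandin E synthase, at −0.56 (SE 0.14) and Gstm6 at −0.32 (SE 0.12). Gsto1 read 3.27 and 3.33 in the controls and 2.75 and 2.85 in KO, without overlap (limma adjusted p = 0.273). The member that was higher, chosen after its values were seen, was Gsta3 at 0.44 (SE 0.23), with levels of −1.67, −1.63, −1.52 and −0.91. For Gsta3, KO replicate 2 alone stood well above the other arrays.

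Of 15 genes of glutathione synthesis, reduction and breakdown, 14 passed, with 6 (42.9%) lower and 1 (7.14%) higher without overlap and a median of −0.15. Without control replicate 2 the median was −0.086 and without KO replicate 1 it was −0.095. Ggt1, which breaks down extracellular glutathione, differed by −0.78 (SE 0.22) and the aminopeptidase gene Lap3 by −0.28 (SE 0.10). The Ggt1 probe was dim, at −4.55 and −4.29 in the controls and −4.94 and −5.47 in KO, so its difference is uncertain. Chac1, which degrades glutathione inside the cell and is a known target of ATF4, differed by 1.24 (SE 0.43), from 0.58 and 1.80 in the controls to 2.47 and 2.39 in KO. The 2 control arrays of Chac1 lay nearly as far apart as the group means. The subunits of the rate-limiting ligase of glutathione synthesis, Gclc and Gclm, differed by −0.06 (SE 0.12) and 0.01 (SE 0.11).

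All 14 peroxidases and peroxiredoxins passed, and 10 (71.4%, against 32.1% of all genes) were lower and 1 (7.14%, against 13.8%) higher without overlap, with a median of −0.20. They include Gpx1 at −0.28 (SE 0.10), the ER peroxiredoxin Prdx4 at −0.36 (SE 0.13) and, higher, the secreted Gpx3 at 0.65 (SE 0.20). Of 22 genes of the leukotriene and prostaglandin pathway, 17 passed, 7 (41.2%) were lower without overlap and 0 higher, and the median was −0.13, or −0.23 without KO replicate 2. Prostacyclin synthase Ptgis differed by −0.54 (SE 0.11), the phospholipase gene Pla2g4a, which frees arachidonic acid, by −0.32 (SE 0.10), and cyclooxygenase Ptgs1 by −0.45 (SE 0.16). Alox5, the lipoxygenase that FLAP serves, differed by −0.05 (SE 0.16).

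All 21 listed NRF2 targets passed; 10 (47.6%, against 32.1% of all genes) were lower without overlap and 0 higher, and the median was −0.16. Those with the smallest unadjusted p were Abcc3, an exporter of conjugates, at −0.38 (SE 0.11), transketolase Tkt at −0.25 (SE 0.10) and Akr1b8 at −0.45 (SE 0.18). Nqo1 differed by −0.02 (SE 0.13) and Hmox1 by −0.08 (SE 0.16), both with overlapping groups. For comparison, of the 16 listed ER chaperone and related genes, 13 (81.2%, against 13.8% of all genes) were higher without overlap and 0 lower, with a median of 0.43, which was 0.24 without KO replicate 1 and 0.68 without KO replicate 2. Xbp1 differed by 0.70 (SE 0.11), Hspa5 by 0.82 (SE 0.16) and Pdia6 by 0.73 (SE 0.15). Limma called no gene of any list at an adjusted p under 0.05.

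**Figure D4:**
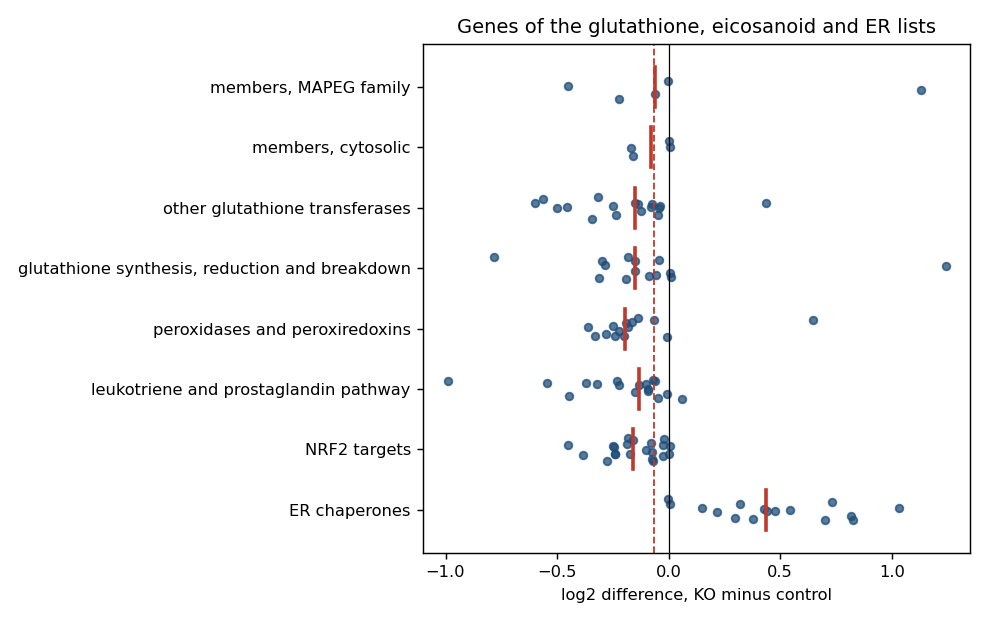
Log2 difference, KO minus control (horizontal axis), of each gene that passed the filter in the lists named at left (points, 1 probe a gene), with each list's median (solid bars), 0 (thin line) and the median of all genes (dashed line, −0.06). Mgst2 at 1.13 lies apart from the other MAPEG members, most points of the glutathione, eicosanoid and NRF2 lists lie below 0, and the ER chaperone list has its median at 0.43.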

How the data were processed

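Cy3-labelled RNA (150 ng per sample) was hybridised to one-colour arrays, per the labels' protocols. The deposited scanner files hold processed signals and median spot signals with their local background, which are intensities on a linear scale, written by Agilent Feature Extraction, whose version is 12.1.1.1 in the file headers and 10.7.1.1 in the submitters' processing notes. The deposited flag columns mark control, outlier, saturated and well-above-background spots. The authors' series table holds log2 values; over 14114 bright probes, differences between its columns matched the scanner values on the log2 scale within 0.01, apart from 1 shift for each array. Its column medians were 0.00706 and −0.194 (controls) and −0.16 and −0.222 (KO); the value each probe was centred on is not known.

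Spots of a probe were averaged as log2 processed signal, without control and outlier spots, and the array's 75th percentile was subtracted. Of 56605 probes, 37516 passed the filter. Of 35886 probes with a RefSeq accession, 91.9% were named through a RefSeq table of GRCm38.p6. Groups were compared with limma 3.58.1 in R 4.3.3 (lmFit and eBayes, no covariates, Benjamini-Hochberg over all probes that passed). The fit had 4.35 degrees of freedom, 2.35 of them from the prior. The steps were tested on simulated data with 200 changed probes. There they called 1.52% of the changes of 1 log2 unit and 62.7% of those of 2 and of 3 units. A member that did not pass the test may therefore still differ. The smallest adjusted p was 0.0531. A gene is represented by its brightest probe that passed. Motifs were searched with Python 3.11.15.

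The members and lists were chosen with earlier results of these data known. Named genes are every member, Derl2, the 3 genes per list with the smallest unadjusted p and the 5 nearest to Mgst2; Gsta3, Gstp2, Gclc, Gclm, Alox5, Nqo1 and Hmox1 were added after their values were seen. Alternatives were quantile normalization, the median of well-above-background probes, scaling to 7 bright spike-in probes, the authors' log2 values, normexp on the spot medians, other filters and spot flags, patches of raised background left out, an intensity trend, a replicate block, leaving out each array, the mean of a gene's probes, a 1.5-fold limit and, added after the data were seen, plain background subtraction. The planned comparison of member proteins was not run.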

Additional observations from a re-analysis of the deposited data

How the results depend on the processing

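Mgst2 was higher in KO under all 17 alternatives, from 0.40 (normexp) to 1.22 (spike-in scaling) and 1.05 to 1.21 with each array left out. The intensity trend, the replicate block, the other filters on dim probes and the mean of a gene's probes cannot change the difference of its only probe. Agreement under those settings was bound to occur, and the rest rework the same spots that chose the list. The limma adjusted p ran from 0.122 to 0.554 and tests nothing, since Mgst2 chose the list. Mgst3, Ltc4s, Gstm5 and Gstp1 kept their direction in all 17, though the trend, block and filters cannot change their differences either. The near-zero differences changed sign. Gstm1 became 0.0035 with the authors' log2 values, 0.0025 with outlier spots kept, 0.00066 without patch spots, 0.025 with plain subtraction, 0.069 with quantile normalization and 0.086 with spike-in scaling. Mgst1 became 0.0032, 0.0022, 0.00036, 0.098, 0.041 and 0.085 in the same order, 0.036 with the mean of its probes and 0.046 with normexp. Alox5ap became 0.027 with plain subtraction and 0.026 with spike-in scaling. With each array left out, Alox5ap ran from −0.22 to 0.095, Gsta4 from −0.068 to 0.084, Gstm1 from −0.089 to 0.088 and Mgst1 from −0.049 to 0.046.

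The member median was 0.025 with plain subtraction, 0.026 with spike-in scaling and −0.13 to −0.022 with each array left out. The median of all probes that passed, −0.028 as reported, moved as well. It was −0.022 with normexp, 0.029 with plain subtraction, 0.0043 with quantile normalization and 0.058 with spike-in scaling. Spike-in scaling shifts every difference by the same amount, so it moves no list relative to all probes. The NRF2 median was −0.12 with normexp, −0.076 with plain subtraction, −0.11 with quantile normalization, −0.074 with spike-in scaling and −0.16 to −0.13 with each array left out. The glutathione synthesis median was −0.087, −0.064, −0.11 and −0.064 in that order and −0.16 to −0.086 with each array left out. The leukotriene and prostaglandin median was −0.064 with plain subtraction, −0.046 with spike-in scaling and −0.23 to −0.12 with each array left out, and the peroxidase median −0.11 with spike-in scaling. With each array left out, the other transferases ran from −0.31 to −0.033 and the ER chaperones from 0.24 to 0.68.

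Calls at the adjusted threshold rose from 0 to 4 with the intensity trend, 2 with normexp, and 1 each with the median of well-above-background probes, patch spots left out, quantile normalization and spike-in scaling; they ran from 0 to 98 with each array left out, the 98 (91 lower) being without control replicate 2. The Derl2 probes passed with the intensity trend, at −1.41 and −1.73, and probe A_55_P2178203 also with normexp, at −1.57. The 441 probes at least 2-fold apart without overlap (51.7% higher) became 2190 at 1.5-fold (63.5% higher), 1239 with no filter, 84 with normexp (34.5%), 233 with the stricter filter (38.2%) and 565 to 890 with each array left out; 63.3% were higher without patch spots, 63.5% with plain subtraction and 65.4% with spike-in scaling. A lower fold limit or no filter can only add probes, and the stricter filter can only remove them. Non-overlap is also easier to meet with an array left out. Without patch spots the count of higher probes stayed at 228, and that of lower ones fell from 213 to 132. Non-control patch spots numbered 1350 for control replicate 1, 32 for the other control array and 0 for either KO array. Beyond this, the cause of the shifts was not tested. The replicate numbers give 2 pairs, whose deviations correlated at r = 0.143 over 35661 probes. The labels do not say what a replicate number stands for, and 2 pairs cannot show whether samples with the same number share a factor. With the replicate block there were 0 calls. Each group holds 1 array of each number, so the block cannot change a difference. The 441 probes 2-fold apart and the Mgst2 difference of 1.13 were bound to stay the same.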
